A study of Mus musculus with 16 samples.

Results

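The genes described here are the 6 metabotropic glutamate receptor genes Grm2, Grm3, Grm4, Grm5, Grm7 and Grm8, taken by symbol from the 26625 genes of the gene count table. The tissue was the medial prefrontal cortex (mPFC) of male C57BL/6 mice that were 8 to 10 weeks old at the start of the experiments. Each mouse had received in the mPFC an adeno-associated virus carrying either a short hairpin RNA against Kdm7a (Kdm7a-shRNA) or a negative control hairpin (Ctrl, genotype labelled WT). It was then conditioned for 10 days, with intraperitoneal morphine at 10 mg/kg and saline on alternate days or with saline alone. Place preference was tested after conditioning, and tissue was taken on Day 17, in drug-free withdrawal, directly after the last of these tests. Morphine in the comparisons below thus means withdrawal after morphine conditioning, sampled just after a return to the conditioning apparatus. Full-length cDNA was read on a Nanopore sequencer. There were 3 samples of Ctrl + Saline, 4 of Ctrl + Morphine, 5 of Kdm7a-shRNA + Saline and 4 of Kdm7a-shRNA + Morphine. All 4 groups carried a virus with a U6-driven hairpin and a CMV-driven EGFP, promoters that are not confined to 1 cell type. The labels number the samples of a group but do not say that each was a separate animal, so p-values measure the spread between these samples.

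Metabotropic glutamate receptors are class C G-protein-coupled receptors that sense glutamate released at excitatory synapses. Group I receptors, with Grm5 among them, couple through the Gq family to phospholipase C and sit mainly around the postsynaptic density. Group II (Grm2 and Grm3) and group III (Grm4, Grm6, Grm7 and Grm8) couple through Gi and Go proteins, lower cyclic AMP and act largely as brakes on transmitter release, and Grm3 is also made by astrocytes. KDM7A removes dimethyl marks from lysines of histone H3 at gene promoters, and the comparisons below ask whether receptor mRNA differed with its knockdown, with morphine, or with both.

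None of the 6 receptor genes passed the test in any of the 7 comparisons, where passing meant an adjusted p below 0.05 (edgeR's quasi-likelihood test, adjusted over 18826 genes) and a change of at least 1.5-fold. The values closest to passing were in the group II gene Grm3 and the group III gene Grm4, which stood on opposite sides of their controls in Kdm7a-shRNA + Morphine samples. Around the receptors, the scaffold gene Homer2 fell with knockdown under saline and averaged over treatments, while its call under morphine was lost without any 1 of 6 samples.

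The start regions of the group II pair are shown because both receptors make up group II and Grm3, not Grm2, came near the threshold. The RefSeq table used here (GRCm38.p6) gave start regions for 4 of the 6 genes. Each line below gives the 250 bases before the start, 5′ to 3′ on the gene's strand, with the GC box GGGCGG, searched on both strands, in capitals.
Grm2, chr9:106656110-106656359, minus strand: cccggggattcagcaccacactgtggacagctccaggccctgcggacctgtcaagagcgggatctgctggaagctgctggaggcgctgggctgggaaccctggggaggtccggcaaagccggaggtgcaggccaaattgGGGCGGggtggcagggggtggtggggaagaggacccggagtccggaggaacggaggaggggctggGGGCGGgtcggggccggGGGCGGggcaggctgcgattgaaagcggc
Grm3, chr5:9725353-9725602, minus strand: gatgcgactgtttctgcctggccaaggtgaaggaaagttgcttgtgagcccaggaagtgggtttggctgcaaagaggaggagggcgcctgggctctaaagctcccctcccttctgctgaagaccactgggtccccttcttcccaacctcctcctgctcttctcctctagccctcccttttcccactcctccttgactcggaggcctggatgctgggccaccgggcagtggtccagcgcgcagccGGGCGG
The Grm2 window held 3 GC boxes and 16 CG dinucleotides, and the Grm3 window held 1 GC box and 8 CG dinucleotides. At least 1 GC box was present in 32.7% of 32851 windows of this length, and the median window held 6 CG dinucleotides. The cyclic AMP response element TGACGTCA was in neither window and in 1.55% of all windows. No histone mark was measured in these samples.

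Total counts ranged from 6596991 to 12418112 per sample, the deepest being Kdm7a-shRNA + Morphine replicate 3. Kdm7a itself, read as normalized CPM (counts scaled by library size and TMM factors), was 9.78, 9.08 and 9.41 in Ctrl + Saline, 7.79, 6.19, 8.89 and 8.02 in Ctrl + Morphine, 5.74, 4.95, 6.04, 6.07 and 4.92 in Kdm7a-shRNA + Saline and 6.28, 4.44, 3.01 and 6.04 in Kdm7a-shRNA + Morphine. It fell by 0.76 on the log2 scale with knockdown under saline (SE 0.204, adjusted p = 0.0153), a call lost without Ctrl + Saline replicate 3 (adjusted p = 0.0533). Under morphine the log2 difference was -0.67 (SE 0.206, adjusted p = 0.0506), with 1 Kdm7a-shRNA sample above the lowest control. It passed there without Kdm7a-shRNA + Morphine replicate 1 or 4 or Ctrl + Morphine replicate 2 (adjusted p from 0.0282 to 0.0431), with scaling by library size alone (adjusted p = 0.0301) and with DESeq2's Wald test (adjusted p = 0.0354). Markers of other cells moved with the virus. Under saline 5 of 6 microglial markers rose, and their summed CPM was 595 to 727 in Ctrl + Saline and 981 to 2918 in Kdm7a-shRNA + Saline. Under morphine 3 of 6 rose, with sums of 338 to 706 against 631 to 2636. The interneuron sum was 487 to 550 in Ctrl + Saline and 325 to 431 in Kdm7a-shRNA + Saline. Of 6 interneuron markers, Sst (-1.14), Vip (-0.92) and Gad2 (-0.63) fell under saline and Pvalb rose (0.68, adjusted p = 0.0174), while under morphine Sst fell (-0.99) and Pvalb rose (0.81, adjusted p = 0.0118). Neuron and excitatory cortical markers were present in every group, and striatal markers summed to 16.4 to 48.7 CPM. The part of these shifts in the results below was not tested. In bulk tissue, fewer cells of a type and less RNA per cell cannot be told apart.

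All 6 receptor genes passed the filter on low counts and lay in the middle range of tested genes. Their mean CPM was between percentile 35.9 (Grm4) and percentile 67.4 (Grm5). Raw counts per sample ran from 23 to 52 for Grm4, from 30 to 73 for Grm3, from 35 to 94 for Grm2, from 37 to 103 for Grm8, from 66 to 139 for Grm7 and from 85 to 271 for Grm5. Counting error alone at these depths was 16.7% of the mean count for Grm4 and 7.88% for Grm5. Mean normalized CPM over 16 samples was highest for Grm5 at 18.4, then Grm7 at 11.1 and Grm8 at 7.60. Grm2 stood at 6.02, Grm3 at 5.80 and Grm4 at 4.06. Grm5 was above Grm7 in 15 of 16 samples and Grm7 above Grm8 in 15. Grm8 was above Grm2 in 12, Grm2 above Grm3 in 9 and Grm3 above Grm4 in 12. Divided by kilobases of the longest coding transcript, the levels were 2.65 CPM per kb for Grm7, 2.28 for Grm5 and 1.97 for Grm8. Grm3 was then at 1.90, Grm2 at 1.28 and Grm4 at 0.88. On that scale Grm7 was above Grm5 in 10 of 16 samples, Grm5 above Grm8 in 12 and Grm8 above Grm3 in 8. Grm3 was above Grm2 in 15, and Grm2 above Grm4 in 15. The reads were of full-length cDNA, so counts need not grow with transcript length, and the per-kilobase order may reflect the division itself. Grm6, a family member known for its place in the retina, had 1 count in 1 of the 16 samples and was not tested, and 0 counts in a library allow up to 3 at this depth.

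Grm5 (chr7:87584168-88134907, plus strand, GRCm38) is the main group I receptor of the forebrain. Its normalized CPM was 17.3, 26.4 and 18.7 in Ctrl + Saline, and 15.5, 20.7, 21.3 and 20.8 in Ctrl + Morphine. It was 16.9, 14.1, 18.4, 26.0 and 15.7 in Kdm7a-shRNA + Saline, and 13.0, 14.99, 9.37 and 25.1 in Kdm7a-shRNA + Morphine. The 4 groups overlapped, and the Kdm7a-shRNA + Morphine samples alone spanned both the lowest value of all and one of the highest. Their mean was 15.6 ± 6.73 (SD, n = 4), against 19.6 ± 2.74 (SD, n = 4) in Ctrl + Morphine, a log2 difference of -0.33 with a 95% interval from -0.86 to 0.20 (adjusted p = 0.444). The other simple differences were smaller, at -0.20 for knockdown under saline, -0.10 for morphine under the control virus and -0.23 for morphine under Kdm7a-shRNA.

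Grm2 (chr9:106643095-106656082, minus strand), the group II receptor of axon terminals, was similar across viruses. In normalized CPM it stood at 5.55, 6.15 and 4.64 in Ctrl + Saline and 5.86, 4.61, 4.74, 6.30 and 3.92 in Kdm7a-shRNA + Saline. With morphine it was 7.49, 10.03, 4.50 and 6.31 in Ctrl + Morphine and 5.82, 7.43, 4.73 and 8.32 in Kdm7a-shRNA + Morphine. Each morphine group held samples above every saline sample and samples within the saline range. The log2 difference with morphine was 0.38 under the control virus (SE 0.263, adjusted p = 0.617) and 0.36 under Kdm7a-shRNA (SE 0.232, adjusted p = 0.777). Averaged over viruses it was 0.37 with a 95% interval from 0.0015 to 0.74, an unadjusted p of 0.0492 and an adjusted p of 0.595.

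Grm3 (chr5:9485541-9725170, minus strand), the group II receptor shared by neurons and astrocytes, was highest in the Kdm7a-shRNA + Morphine samples. There its normalized CPM was 9.04, 8.27, 6.27 and 7.51, and it was 5.09, 5.76, 4.87 and 4.92 in Ctrl + Morphine. It was 4.14, 4.03, 5.21, 6.19 and 5.93 in Kdm7a-shRNA + Saline and 3.97, 5.76 and 5.83 in Ctrl + Saline. All 4 Kdm7a-shRNA + Morphine samples were above all 12 others, with the lowest of them 6.27 and the highest of the others 6.19, in Kdm7a-shRNA + Saline. That gap was well inside counting error, which was 12.5% of the mean count in Kdm7a-shRNA + Morphine and 14.8% in Kdm7a-shRNA + Saline. In Ctrl + Morphine the SD was 7.98% of the mean and counting error 14.5%, so those samples lay closer together than counting error alone would give. The means were 7.77 ± 1.18 (SD, n = 4) against 5.16 ± 0.412 (SD, n = 4), 5.10 ± 0.994 (SD, n = 5) and 5.18 ± 1.06 (SD, n = 3), in the same order of groups.

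For Grm3 the knockdown difference under morphine was 0.58 on the log2 scale (SE 0.192, 95% interval 0.18 to 0.99), with an unadjusted p of 0.00731 and an adjusted p of 0.0641, so it did not pass. Over the other scalings, filters and tests its adjusted p ranged from 0.0542 to 0.133. The morphine difference under Kdm7a-shRNA was 0.60 (SE 0.182, 95% interval 0.22 to 0.98), with an unadjusted p of 0.00413 and an adjusted p of 0.561. These comparisons share the Kdm7a-shRNA + Morphine samples. With either condition alone the values were near 0, at -0.03 for knockdown under saline (95% interval -0.45 to 0.40) and -0.01 for morphine under the control virus (95% interval -0.46 to 0.44). The knockdown effect under morphine exceeded that under saline by 0.61 (SE 0.279), with an unadjusted p of 0.0432 and an adjusted p of 0.443. Of 7 astrocyte markers, none passed with knockdown under morphine (median log2 difference 0.57, all 7 above 0) and none with morphine under Kdm7a-shRNA (median -0.14). With knockdown under morphine Slc1a3 had an adjusted p of 0.0341 at a log2 difference of 0.57, below 1.5-fold, and Aldh1l1 an adjusted p of 0.0571 at 1.03. Their summed CPM was 7938 to 9757 in Kdm7a-shRNA + Morphine, 7093 to 8613 in Ctrl + Morphine, 8238 to 9956 in Kdm7a-shRNA + Saline and 8843 to 11154 in Ctrl + Saline. Most of that sum was Aldoc, with group means from 7208 to 9569 CPM. The part of astrocyte RNA in the Grm3 values was not tested.

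**Figure D1:**
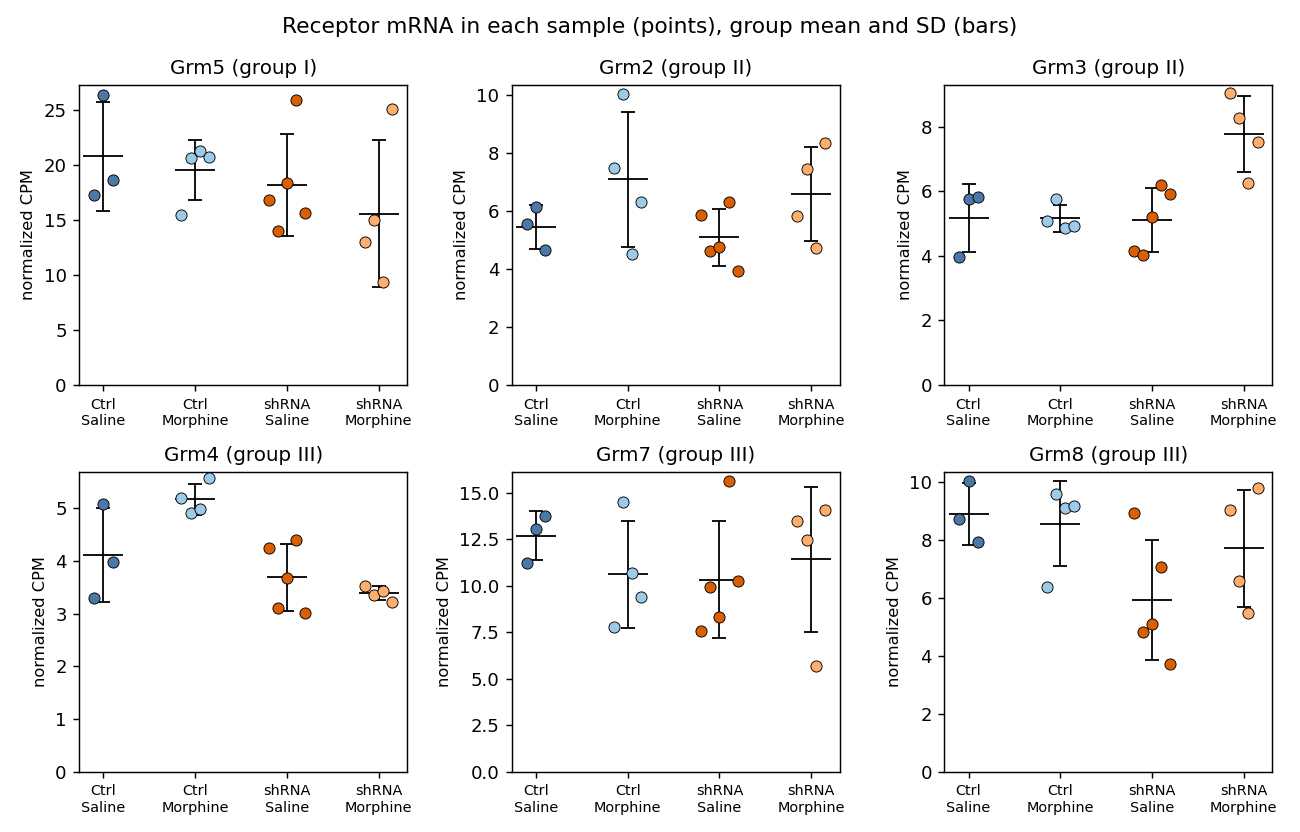
Normalized CPM (vertical axes) of the 6 receptor genes in each of the 16 samples (points) by virus and treatment (horizontal axes), where bars give the group mean and SD. The 4 Kdm7a-shRNA + Morphine samples lie above all others for Grm3 and, for Grm4, below all 4 Ctrl + Morphine samples.

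Grm4 (chr17:27422387-27521403, minus strand), a group III receptor of axon terminals, was the rarest of the 6. Its normalized CPM was 3.52, 3.36, 3.44 and 3.22 in Kdm7a-shRNA + Morphine and 5.19, 4.91, 4.99 and 5.56 in Ctrl + Morphine. It was 4.25, 3.11, 3.67, 4.39 and 3.02 in Kdm7a-shRNA + Saline and 3.30, 5.07 and 3.97 in Ctrl + Saline. The morphine groups did not overlap, while the saline groups did. The SD was 3.81% of the mean in Kdm7a-shRNA + Morphine and 5.65% in Ctrl + Morphine. Counting error alone was 18.7% and 14.5% there. These samples thus lay closer together than counting error alone would give, so the gap between the groups looks firmer than the counts allow. The knockdown difference under morphine was -0.61 on the log2 scale (SE 0.190, 95% interval -1.01 to -0.21), with an adjusted p of 0.0526, so it did not pass. It passed when samples were scaled by library size alone (-0.72, adjusted p = 0.0271) and when only genes with at least 10 counts in every sample were tested (-0.63, adjusted p = 0.0416). Under saline the difference was -0.17 (95% interval -0.58 to 0.24). The difference between the knockdown effects was -0.44 (SE 0.274, adjusted p = 0.613). Averaged over treatments the knockdown difference was -0.39 (SE 0.137), with an adjusted p of 0.0413, reached by 27.6% of all genes, but a change below 1.5-fold. Without Ctrl + Saline replicate 2 that adjusted p was 0.156.

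Grm7 (chr6:110645581-111567230, plus strand), which marks presynaptic active zones and needs high glutamate to respond, overlapped across all 4 groups. Levels were 11.2, 13.1 and 13.8 normalized CPM in Ctrl + Saline and 7.79, 14.5, 10.7 and 9.41 in Ctrl + Morphine. It was 7.58, 9.91, 8.29, 15.6 and 10.3 in Kdm7a-shRNA + Saline and 13.5, 12.5, 5.67 and 14.1 in Kdm7a-shRNA + Morphine. The lowest of these was the deepest library. The log2 differences were -0.30 and 0.09 for knockdown under saline and morphine, and -0.26 and 0.13 for morphine under the control virus and Kdm7a-shRNA. Scaling by library size alone turned the second of these to -0.0029. The adjusted p-values of these 4 were between 0.476 and 0.941.

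Grm8 (chr6:27275119-28135178, minus strand), another presynaptic group III receptor, was lower with knockdown in most saline samples. Its normalized CPM was 8.72, 10.1 and 7.95 in Ctrl + Saline and 8.96, 4.84, 5.10, 7.09 and 3.72 in Kdm7a-shRNA + Saline. In Kdm7a-shRNA + Saline, 4 of 5 samples were below every control, and replicate 1 lay among them. The log2 difference was -0.59 (SE 0.256, 95% interval -1.13 to -0.05, adjusted p = 0.111). Without that replicate the difference was -0.79 and passed (adjusted p = 0.0343). With morphine Grm8 was 6.39, 9.60, 9.13 and 9.20 in Ctrl + Morphine and 9.04, 6.59, 5.50 and 9.80 in Kdm7a-shRNA + Morphine. These overlapped, with a log2 difference of -0.16 (adjusted p = 0.731). The difference between the knockdown effects was 0.43 (SE 0.357, adjusted p = 0.729), so the saline and morphine values are not shown to differ.

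With knockdown under saline 0 of 6 receptors passed, where 16.7% of all tested genes did. At an unadjusted p below 0.05 there was 1 receptor (Grm8), against 34.7% of all genes. All 6 log2 differences were below 0, from -0.59 to -0.03 with a median of -0.18, beside a median of 0.01 over all genes. No receptor had groups that did not overlap, against 23.7% of all genes. With knockdown under morphine 0 of 6 passed, where 7.69% of all genes did, and 2 (Grm3 and Grm4) had an unadjusted p below 0.05, against 25.5%. The same 2 had groups that did not overlap, against 13.9% of all genes. The median was -0.14, with 2 receptors higher and 4 lower.

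With morphine under the control virus 0 of 6 passed, as did 0% of all genes, and at an unadjusted p below 0.05 there were 0 receptors against 11.7% of all genes. No receptor had groups that did not overlap, against 12.4%. With morphine under Kdm7a-shRNA 0 of 6 passed, where 0.00531% of all genes did, and 1 (Grm3) had an unadjusted p below 0.05, against 7.02%. Grm3 was also the 1 receptor whose groups did not overlap, against 1.94% of all genes. The medians were -0.03 and 0.25, beside -0.01 and -0.0049 over all genes. For the interaction 0 of 6 passed, where 0.085% of all genes did, and 1 (Grm3) had an unadjusted p below 0.05, against 10.7%. For knockdown averaged over treatments 0 of 6 passed against 17.6%, and 2 (Grm4 and Grm8) had an unadjusted p below 0.05 against 38.8%. For morphine averaged over viruses 0 of 6 passed against 0%, and 1 (Grm2) had an unadjusted p below 0.05 against 8.36%. DESeq2's Wald test also called 0 of 6 in each of the 7 comparisons. The intervals were wide, so most of them do not exclude a 1.5-fold change.

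**Figure D2:**
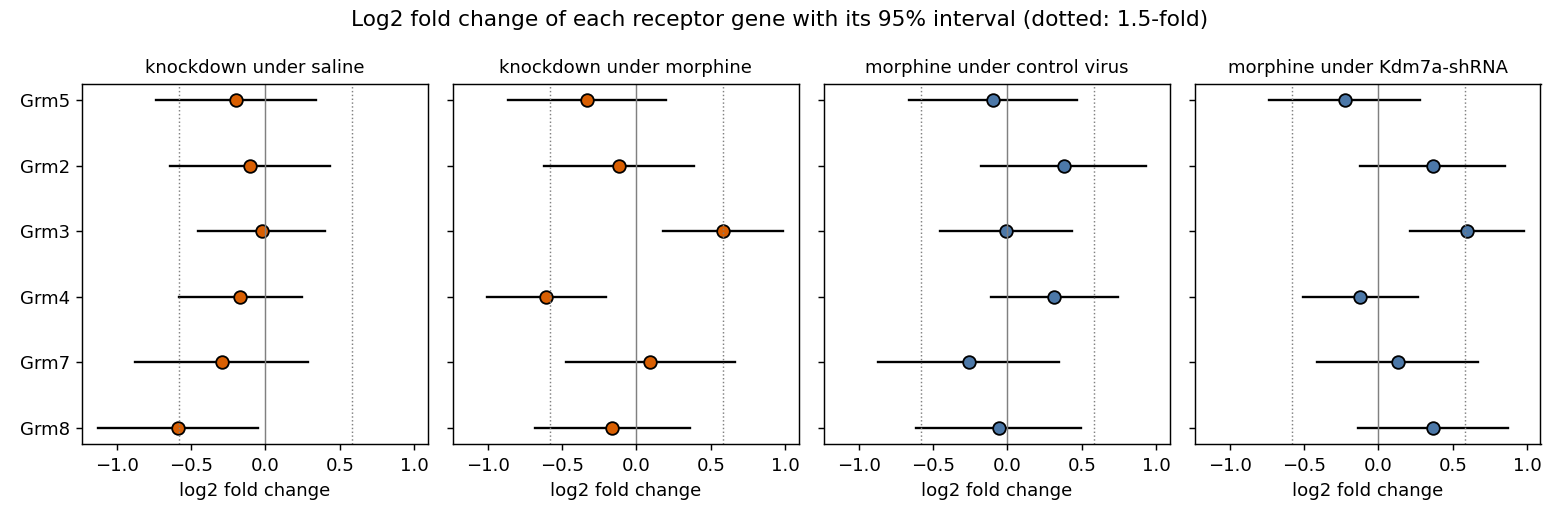
Log2 fold change (horizontal axes) of each receptor gene in the 4 simple comparisons, with its 95% interval as a line, 0 as a solid and 1.5-fold as dotted vertical lines. The intervals of Grm3 (0.18 to 0.99) and Grm4 (-1.01 to -0.21) with knockdown under morphine, of Grm8 (-1.13 to -0.05) with knockdown under saline and of Grm3 (0.22 to 0.98) with morphine under Kdm7a-shRNA leave out 0.

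The make-up of the family could be read without scaling between samples, as each gene's share of the 6 genes' counts within a sample. Group II (Grm2 and Grm3) took 23.3% to 31.4% in Kdm7a-shRNA + Morphine, 19.0% to 23.2% in Kdm7a-shRNA + Saline, 16.9% to 26.5% in Ctrl + Morphine and 17.9% to 19.1% in Ctrl + Saline. The Kdm7a-shRNA + Morphine samples were thus above both saline groups, and overlapped with Ctrl + Morphine. Group I (Grm5) averaged 29.0% ± 5.51 (SD, n = 4) there and 34.9% to 37.4% in the other groups, and group III averaged between 41.3% and 45.2% in all 4. Within group II, Grm3 made up 47.5% to 60.8% of the counts in Kdm7a-shRNA + Morphine and 36.5% to 51.9% in Ctrl + Morphine, which overlapped. The summed normalized CPM of the 6 genes was 57.2 ± 8.47 (SD, n = 3) in Ctrl + Saline and 52.5 ± 13.6 (SD, n = 4) in Kdm7a-shRNA + Morphine.

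**Figure D3:**
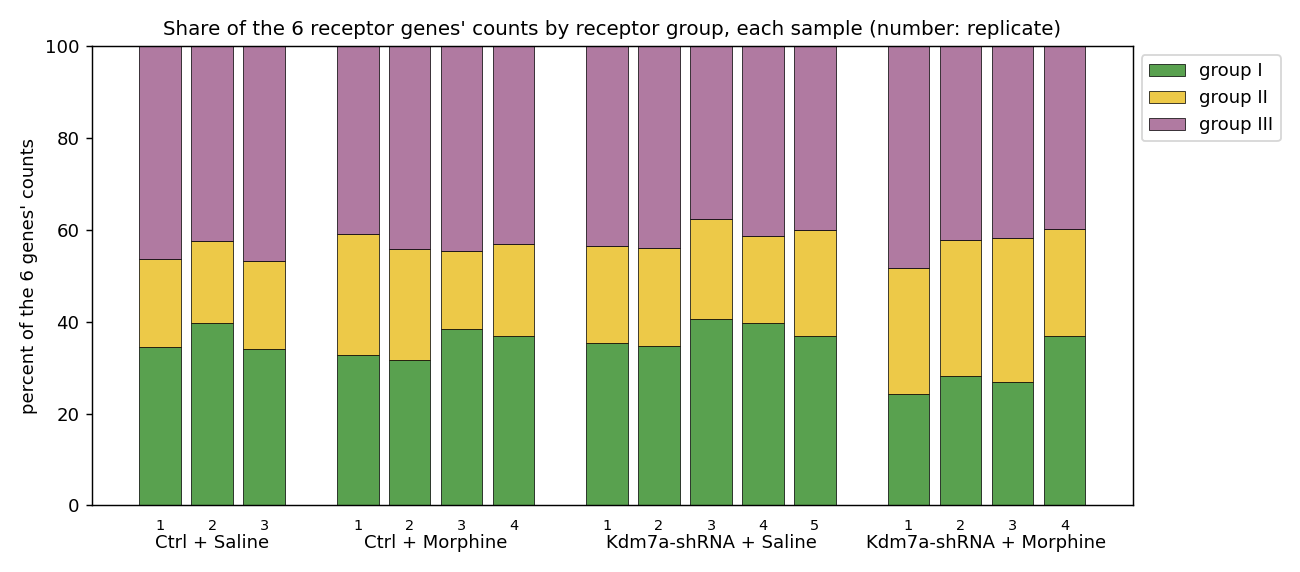
Share of the 6 receptor genes' counts (vertical axis, percent) taken by group I (Grm5), group II (Grm2 and Grm3) and group III (Grm4, Grm7 and Grm8) in each sample (horizontal axis, replicate number within group). The group II segment spans 23.3% to 31.4% in Kdm7a-shRNA + Morphine and 17.9% to 19.1% in Ctrl + Saline.

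Genes that act with the receptors were read as lists. Of all tested genes, 7.43% rose and 9.31% fell with knockdown under saline, 2.86% rose and 4.83% fell under morphine, and 7.68% rose and 9.93% fell averaged over treatments. Of 24 tested genes for group I signalling and scaffolds, 2 rose and 2 fell with knockdown under saline, and 1 rose and 1 fell under morphine. The list medians were 0.05 and -0.17, beside 0.01 and -0.0045 over all genes. Homer2 encodes a scaffold that binds the tails of group I receptors. Homer2 measured 13.1, 13.2 and 10.1 normalized CPM in Ctrl + Saline and 4.94, 2.88, 2.96, 9.56 and 3.82 in Kdm7a-shRNA + Saline. With morphine it was 10.7, 14.7, 11.6 and 9.20 in Ctrl + Morphine and 5.06, 6.35, 4.04 and 6.71 in Kdm7a-shRNA + Morphine. Knockdown samples were below every control of their treatment in both comparisons. Homer2 fell by 1.32 on the log2 scale under saline (SE 0.304, adjusted p = 0.00667) and by 1.07 under morphine (SE 0.303, adjusted p = 0.0346). Under morphine that call was lost without any 1 of 6 samples, namely Kdm7a-shRNA + Morphine replicates 1 and 3 and each Ctrl + Morphine sample, with adjusted p from 0.0577 to 0.115. Averaged over treatments Homer2 fell by 1.195 (adjusted p = 6.29e-04), and it passed in every alternative and with each sample left out.

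The sister scaffold Homer3 rose under saline, from 5.68, 4.98 and 4.37 CPM in Ctrl + Saline to 9.54, 15.6, 14.5, 8.55 and 11.7 in Kdm7a-shRNA + Saline (log2 difference 1.25, SE 0.254, adjusted p = 0.00323). Under morphine its difference was -0.32 (SE 0.232, adjusted p = 0.416), and the difference between the 2 knockdown effects was -1.57 (SE 0.342, adjusted p = 0.0732). Dagla, which makes the endocannabinoid released downstream of group I receptors, rose under saline (0.74, adjusted p = 0.00888), a call lost without Ctrl + Saline replicate 1 (adjusted p = 0.0560). Prkca, a protein kinase C, fell by 0.64 under saline (adjusted p = 0.0230), and the call was lost without Kdm7a-shRNA + Saline replicate 2 or Ctrl + Saline replicate 2 (adjusted p = 0.0555 and 0.139). Gnaq, the G protein that couples group I receptors, rose under morphine, from 30.4, 47.5, 35.1 and 27.8 CPM to 82.1, 72.1, 43.2 and 69.0 (log2 difference 0.92, adjusted p = 0.0174). One knockdown sample lay within the control range, and the call was lost without Kdm7a-shRNA + Morphine replicate 1 or Ctrl + Morphine replicate 1 or 4 (adjusted p from 0.0515 to 0.0672).

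Of 26 tested partners of group II and III receptors, 2 rose and 1 fell with knockdown under saline, and 1 fell under morphine. The list medians were -0.03 and -0.15. Gnai2, an inhibitory G protein subunit, rose by 0.76 under saline (adjusted p = 0.0200) but not without Ctrl + Saline replicate 3 (adjusted p = 0.133). Arrb2, an arrestin that ends receptor signalling, rose by 1.05 under saline (adjusted p = 0.00784). Kcnj9, a channel subunit opened by inhibitory G proteins, fell by 0.65 under morphine (adjusted p = 0.0280). Its call was lost without Kdm7a-shRNA + Morphine replicate 2 or 3 or Ctrl + Morphine replicate 1 or 4 (adjusted p from 0.0502 to 0.0969). Gnai2 and Arrb2 are also expressed by microglia, whose summed markers were higher in the same comparison. The part of microglial RNA in these values was not tested. Averaged over treatments 2 rose (Gnai2, 0.64, and Arrb2, 0.62) and 1 fell, Grip1, a scaffold that binds glutamate receptor tails (-0.65), all near the limit of 1.5-fold. Gnai2 went below it without Kdm7a-shRNA + Morphine replicate 3 or Ctrl + Saline replicate 3 (0.51 to 0.56), with scaling by library size alone (0.52) and with annotated genes only (0.58). Arrb2 did so without Kdm7a-shRNA + Morphine replicate 2 or 3, Kdm7a-shRNA + Saline replicate 2 or 5, Ctrl + Morphine replicate 2 or Ctrl + Saline replicate 1 (0.54 to 0.58), with library size alone (0.50), annotated genes only (0.56) and the replicate block (0.58). Grip1 did so without Ctrl + Morphine replicate 4 or Ctrl + Saline replicate 2 (-0.58 and -0.53).

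Of 13 tested genes of glutamate supply and clearance, 2 rose with knockdown under each treatment and none fell. Slc38a3, a glutamine transporter of astrocytes, rose by 1.21 under saline (adjusted p = 0.0119) and by 1.03 under morphine (adjusted p = 0.0320). Its CPM ranged from 59.8 to 80.7 over all Ctrl samples and from 77.7 to 223 over all Kdm7a-shRNA samples. The saline call was lost without Ctrl + Saline replicate 2 (adjusted p = 0.0547). The morphine call was lost when Kdm7a-shRNA + Morphine replicate 1 or 3 or any Ctrl + Morphine sample was left out (adjusted p from 0.0558 to 0.142), and with annotated genes only (0.98, adjusted p = 0.0613). Of 7 astrocyte markers, Aldh1l1 (1.11, adjusted p = 0.0338) and Gfap (1.36, adjusted p = 0.0485) also rose under saline, and 0 passed under morphine. The part of astrocyte RNA in the Slc38a3 values was not tested. Slc38a1, a glutamine transporter of neurons, rose under morphine (0.59, adjusted p = 0.00954) at the limit of 1.5-fold. It went below that limit without replicate 3 or 4 of Kdm7a-shRNA + Morphine or replicate 1 or 4 of Ctrl + Morphine (0.52 to 0.58), and also with library size alone (0.48), at least 10 counts in every sample (0.57), annotated genes only (0.54) and the compared groups alone (0.58). Under saline it had a log2 difference of 0.58 (adjusted p = 0.00584), just short of the limit. Its lowest Kdm7a-shRNA sample was 68.0 CPM and its highest Ctrl sample 62.7. Slc3a2, a shared chain of amino acid exchangers, rose under saline (0.83, adjusted p = 0.00287). None of the 6 genes that make or break down the group II agonist NAAG passed. Of 5 tested class C receptors outside the family, Gpr158 fell under saline (-0.87, adjusted p = 0.0296), a call lost without Kdm7a-shRNA + Saline replicate 1, 2, 3 or 5 or Ctrl + Saline replicate 2 or 3 (adjusted p from 0.0535 to 0.101). In none of these lists did a gene pass in a morphine or interaction comparison.

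**Figure D4:**
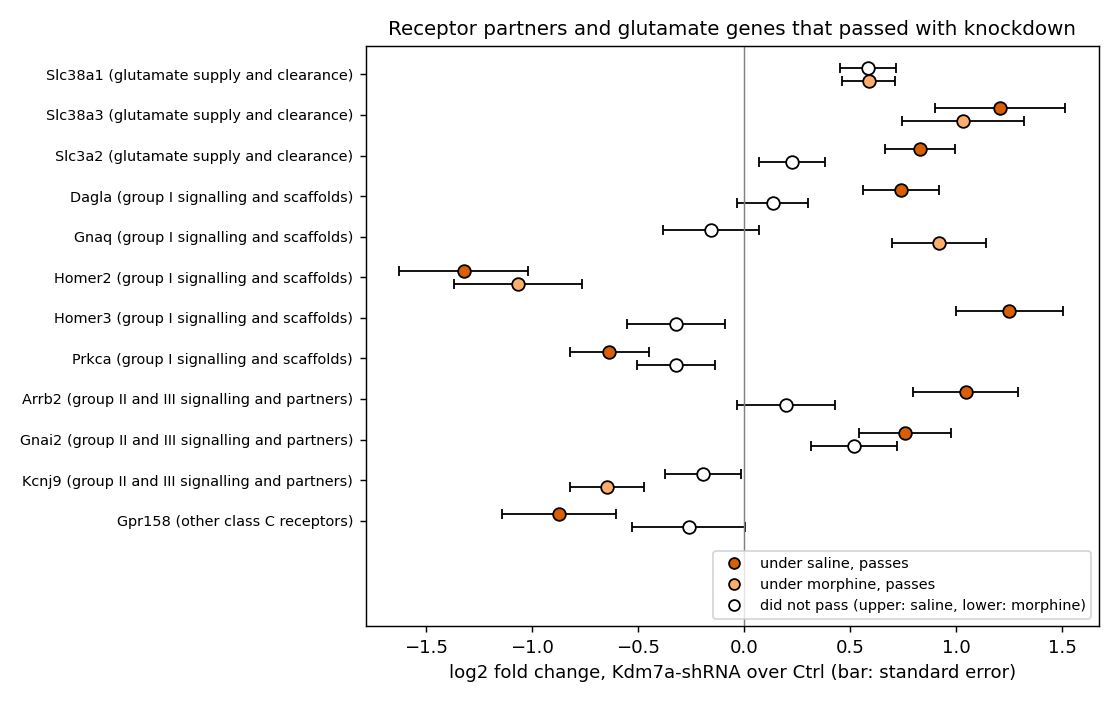
Log2 fold change of Kdm7a-shRNA over Ctrl (horizontal axis, bars are standard errors) for 12 list genes that passed in at least 1 simple knockdown comparison, with the saline value above the morphine value and open points where a gene did not pass. Homer2 (-1.32 and -1.07) and Slc38a3 (1.21 and 1.03) have filled points under both treatments.

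After group means were removed, the deviations of the receptors in log2 CPM over the 16 samples went together unevenly. Pearson's r was highest for Grm5 with Grm7 (0.70) and Grm3 with Grm7 (0.66) and lowest for Grm3 with Grm8 (0.023) and Grm4 with Grm7 (0.048). Among about 7818 candidate genes, the patterns most like Grm5 were those of the neurotrophin receptor gene Ntrk3 (0.95), Nmt2 (0.92) and Camk2a (0.90), a kinase gene of excitatory neurons. Among those most like Grm8 were Slc30a3 (0.94), a zinc transporter of glutamatergic vesicles, and Tnpo2 (0.91). Those most like Grm7 were Kcnab1, Dctn6 and Gabarapl2 (0.93, 0.93 and 0.92), and those most like Grm2 were Dcaf7, Adam22 and Rab2a (0.90, 0.89 and 0.88). For Grm3 they were Gigyf2, Bnip3l and Ppp6c (0.89, 0.88 and 0.86), and for the rarest gene, Grm4, Larp4b, Mmp17 and Smap1 (0.81, 0.80 and 0.78). These values describe 16 samples that share library depth and tissue make-up, and were picked as the highest of many.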

How the data were processed

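Gene counts were measured in 16 mPFC samples in 4 groups. The authors deposited raw read counts per gene and the same counts as CPM, of which the deposited CPM equal count over column total to within 4.99e-06. Per the study's methods, Nanopore cDNA-PCR reads of quality of at least 7 and at least 500 bases were freed of rRNA, mapped to mm10 with minimap2 and consolidated with Pinfish and cDNA Cupcake, and reads of match quality above 5 were counted. Reads without molecular identifiers passed through PCR, so counting errors cover sampling of reads only. Paralogs were counted by the authors' mapping, and strand handling is not given in the sources used here. The submitters' processing notes name edgeR 3.8.6.

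Counts were tested with edgeR 4.0.16 (R 4.3.3, limma 3.58.1): filterByExpr kept 18826 of 26625 genes (all 6 receptors), TMM scaling, 1 coefficient per group over all 16 samples, quasi-likelihood F-test and Benjamini-Hochberg adjustment over all genes tested. The common biological coefficient of variation was 0.215. The 7 comparisons were knockdown under saline and under morphine, morphine under each virus, their interaction, and knockdown and morphine averaged over the other factor. Within groups, sample pairs differed by more than sampling noise, so none was counted as a duplicate. The labels do not say what a replicate number marks. By the deviations from group means, all 3 same-numbered pairs of Ctrl + Morphine with Ctrl + Saline correlated above 0.1 (from 0.110 to 0.207), the criterion used for pairing, and no other pair of groups did so throughout. The scripts were tested on simulated counts, with 100 genes changed 2-fold and 100 changed 1.5-fold in Kdm7a-shRNA + Morphine. For knockdown under morphine, an adjusted p below 0.05 was reached by 61.5% of the former and 4.49% of the latter, among those tested. Changes near 1.5-fold were thus mostly missed there. Far fewer genes changed in the simulation than passed in the data, so recovery in the data can differ. Lengths came from GENCODE vM21 (GRCm38) and start regions from RefSeq. Deviations for likeness used log2 CPM with a prior count of 2, among annotated genes with a mean CPM of at least 10.

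Named were every receptor in every comparison, Kdm7a and Grm6, the 3 genes most like each receptor, and from each list up to 4 passing genes with the smallest p in each comparison. Some genes that this rule names are not reported here. The receptors and lists were chosen with earlier results of these data known. Alternatives were other scalings (RLE, library size), filters, annotated genes only, DESeq2 1.42.0, a replicate block, adjusted p alone, the compared groups alone and each sample left out. Levels were read both as CPM and as CPM per kilobase of transcript.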

Additional observations from a re-analysis of the deposited data

Results flagged for a closer look

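Among 21 groups of 4 or 5 samples tested over the 6 receptors and Kdm7a, 2 held a sample far from the others, and chance flags about 1 in 20 groups. Both were Ctrl + Morphine replicate 1. Its Grm5 level was 15.5 normalized CPM, where the nearest of the other 3 was 20.7. Its Grm8 level was 6.39 normalized CPM, where the nearest was 9.13. Without this sample the log2 differences with morphine under the control virus changed sign, from -0.10 to 0.0020 for Grm5 and from -0.06 to 0.060 for Grm8, and neither gene passed.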

How the results depend on the processing

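The count of receptors that passed stayed at 0 in all 7 comparisons under RLE scaling, no filter on low counts, annotated genes only, DESeq2 and the replicate block. It also stayed at 0 with the compared groups alone, which was run for the simple comparisons only. It was 1 (Grm4) with knockdown under morphine when scaled by library size only and when at least 10 counts in every sample were required. It was 1 (Grm4) for knockdown averaged over treatments by adjusted p alone, and 0 to 1 (Grm8) for knockdown under saline with each sample left out. Scaling by library size only turned Grm7 under morphine to -0.0029 and moved the median of all genes with knockdown to -0.12 (saline) and -0.11 (morphine). It also lowered the percentage of passing genes lying above their controls from 44.4% to 29.2% and from 37.2% to 24.0%, against 61.7% and 60.1% with annotated genes only. The Grm2 interaction (-0.014) became 0.0089 with RLE, 0.017 with library size only, 0.016 with at least 10 counts, 0.027 with annotated genes only and 0.0081 with DESeq2. With each sample left out, 15 of 77 single-gene log2 differences changed sign, none of which had passed. Their lowest and highest values for knockdown under saline were Grm2 (-0.23 to 0.00067), Grm3 (-0.22 to 0.066), Grm4 (-0.34 to 0.022) and Grm5 (-0.36 to 0.021). Knockdown under morphine gave Grm2 (-0.28 to 0.094) and Grm7 (-0.032 to 0.33). Morphine under the control virus gave Grm3 (-0.20 to 0.079), Grm5 (-0.25 to 0.12) and Grm8 (-0.15 to 0.060). Morphine under Kdm7a-shRNA gave Kdm7a (-0.32 to 0.0043). The interaction gave Grm2 (-0.17 to 0.20), Grm5 (-0.46 to 0.058) and Kdm7a (-0.036 to 0.29). The averaged knockdown gave Grm7 (-0.20 to 0.019) and the averaged morphine difference Grm7 (-0.16 to 0.053).

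Of 21 same-numbered pairs across groups 6 had deviations correlated above 0.1 (range -0.10 to 0.39), and all 3 between Ctrl + Morphine and Ctrl + Saline did. With the replicate block 0 receptors passed in each comparison, and for morphine under the control virus 0 genes passed with and without it. Counts over all genes moved more. With knockdown under saline 3151 genes passed, against 1419 (annotated genes only) to 3402 (no filter), and 1424 to 3730 with each sample left out. With knockdown under morphine 1448 passed, against 446 (annotated genes only) to 1697 (DESeq2), and 568 to 2066 with each sample left out. For knockdown averaged over treatments 3316 passed, against 1456 (annotated genes only) to 4080 (no filter), and 5190 by adjusted p alone. For the interaction 16 passed, against 6 (replicate block) to 227 (DESeq2), and 0 to 266 with each sample left out. For morphine, DESeq2 called 190 genes under the control virus and 26 under Kdm7a-shRNA, against 0 and 1. The cause of these moves was not tested. The receptor order was Grm5, Grm7, Grm8, Grm2, Grm3 and Grm4 by CPM, and Grm7, Grm5, Grm8, Grm3, Grm2 and Grm4 by CPM per kilobase.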
